A study of Mus musculus with 16 samples.

Results

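The nuclear receptor genes described here are 31 transcription factor genes picked by symbol from a terminal ileum RNA-seq table of 24940 genes, and all 31 were found in it. The list leaves out other nuclear receptors, Rxra and Nr1h4 (FXR) among them, so orders and shares given below hold within the 31. Whole-tissue RNA came from C57BL/6 mice in 4 groups of 4 libraries, WT and LKO of each sex. WT mice carried loxP-flanked Bcl6 alleles (Bcl6 fl/fl) and no Cre. LKO mice carried the same alleles with an Alb-cre transgene, whose albumin promoter drives Cre in hepatocytes, so the floxed alleles were shared by all groups and the deletion was directed at the liver and not at the ileum. Ages are not in the labels. Neither is it stated there whether the mouse behind a given ileum library had been fasted. For the receptors the comparisons ask how abundant each is in ileum, whether loss of BCL6 in hepatocytes altered it there, and whether it differed between the sexes.

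Nuclear receptors are ligand-regulated transcription factors that share a zinc-finger DNA-binding domain and, in most members, a pocket that binds a small lipophilic molecule. Many of them bind as heterodimers with a retinoid X receptor (RXR) to paired copies of the half-site AGGTCA, and estrogen receptors pair on the same half-site, whereas the glucocorticoid, mineralocorticoid and progesterone receptors bind as homodimers to paired copies of a site close to AGAACA. In the small intestine they sense nutrients and their products, among them vitamin D, vitamin A, oxysterols, fatty acids and xenobiotics, and the HNF4 receptors hold the absorptive enterocyte in its differentiated state.

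Summed gene counts were 15.7 to 20.5 M in 15 libraries and 60.3 M in female LKO replicate 1. Bcl6 itself, the gene floxed in all mice, was measured in every ileum group, with mean levels of 15.9 ± 1.61 CPM (counts per 1 M counts of the library, SD, n = 4) in male WT, 18.9 ± 2.05 in male LKO, 12.1 ± 2.92 in female WT and 20.7 ± 5.03 in female LKO, so it was not lower in LKO ileum. Its log2 fold change in LKO was 0.26 (adjusted p = 0.879) in males, 0.77 (adjusted p = 0.285) in females and 0.51 (adjusted p = 0.121) over both sexes with edgeR, while DESeq2 called it higher in females (adjusted p = 0.0198) and over both sexes (adjusted p = 0.0146). Each was the 1 call of Bcl6 among 20 fits in females and 29 over both sexes. The log2 fold change ran from 0.47 to 0.90 in females and from 0.38 to 0.59 over both sexes, with adjusted p up to 0.579 and 0.440. Enterocyte markers identified the tissue, with all 11 markers counted in every library and a summed level of 19108 to 26243 CPM. Of the 6 hepatocyte markers, Cyp7a1 had no count in any library, Alb, Apoh, Serpina1a and Fgb averaged at most 1.37 CPM, and Tat averaged 41.95 CPM (23.2 to 78.4). Their sum ran from 26.0 to 81.8 CPM, with means of 41.5 in male WT, 62.0 in male LKO, 36.0 in female WT and 39.2 in female LKO. Summed B cell markers were uneven, at 213 and 410 CPM in female LKO replicates 2 and 3, 123 CPM in male WT replicate 2 and 16.2 to 70.2 CPM in the other 13 libraries. Some markers of other epithelial cells differed with genotype, mainly Paneth cell markers in males. In male LKO 2 of 8 Paneth cell markers were called higher, against 0.0527% of all genes called. With an unadjusted p below 0.05, 6 of 8 were higher, against 3.01% of all genes. Summed Paneth markers ran from 14199 to 16656 CPM in male WT and from 18883 to 25088 CPM in male LKO, without overlap, and overlapped in females (19059 to 26860 CPM in WT, 22399 to 26679 CPM in LKO). In females no Paneth cell marker had an unadjusted p below 0.05 for genotype. The interaction of genotype and sex called 0 of 8 Paneth cell markers, so a difference between the sexes is not shown. At an unadjusted p below 0.05 it had 3 of 8, all with the higher effect in males, against 2.58% of all genes in that direction. In males genotype also cannot be told apart from the order of sample titles, as given below. No goblet cell marker was called for genotype in either sex or over both. Over both sexes all 8 enteroendocrine markers had lower estimates in LKO, with 1 called, against 0.269% of all genes, and none called in either sex alone. Their sum ran from 345 to 390 CPM in female WT and from 291 to 330 CPM in female LKO. In males the sums overlapped, at 346 to 421 CPM in WT and 341 to 385 CPM in LKO. The part of these cells in the receptor values was not tested. In pieces of whole tissue, fewer cells of a type and less RNA per cell cannot be told apart. No label says which libraries came from separate litters or cages, so p-values measure the spread between these libraries.

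Promoter sequences are shown for the 3 receptors on which the results below turn: Hnf4a, the most abundant member, Ppard, which with Hnf4a differed between the sexes, and Thrb, which had the lowest genotype p. Each window runs from 250 bases before to 50 bases after the RefSeq start site (build GRCm38.p6, 5′ to 3′ on the gene's strand), and each start site is the 5′ end of the transcript counted in the deposited table. Capitals mark AGGTCA, searched on both strands along with AGAACA.
Hnf4a, chr2:163546905-163547204, plus strand: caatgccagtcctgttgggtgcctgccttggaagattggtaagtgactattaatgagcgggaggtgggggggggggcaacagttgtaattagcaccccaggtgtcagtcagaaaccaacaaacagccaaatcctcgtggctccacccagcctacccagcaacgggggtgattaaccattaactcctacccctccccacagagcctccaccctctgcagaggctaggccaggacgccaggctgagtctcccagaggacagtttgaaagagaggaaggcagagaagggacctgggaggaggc
Ppard, chr17:28232504-28232803, plus strand: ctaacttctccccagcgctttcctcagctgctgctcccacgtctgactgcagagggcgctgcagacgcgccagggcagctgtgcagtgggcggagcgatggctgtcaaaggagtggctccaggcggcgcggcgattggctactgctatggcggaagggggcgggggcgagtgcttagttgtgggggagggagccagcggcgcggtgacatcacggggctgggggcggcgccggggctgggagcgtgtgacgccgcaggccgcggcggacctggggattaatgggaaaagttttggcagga
Thrb, chr14:17660710-17661009, plus strand: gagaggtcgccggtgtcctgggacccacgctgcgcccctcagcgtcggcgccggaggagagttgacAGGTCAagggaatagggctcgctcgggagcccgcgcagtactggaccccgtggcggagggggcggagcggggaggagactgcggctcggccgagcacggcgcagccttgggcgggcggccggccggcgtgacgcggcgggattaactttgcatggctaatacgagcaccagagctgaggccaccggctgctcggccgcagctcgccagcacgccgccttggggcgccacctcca
In these 3 windows the search found 1 match, an AGGTCA in the Thrb promoter that begins 184 bases before the start site. Over the table, 28 of the 31 members had 42 promoters, and 7 of these 42 (16.7%) held AGGTCA on either strand against 16.3% of all 32851 promoters. The 7 belonged to Nr6a1, Pparg, Rara, Rarg, Rxrg and Thrb. AGAACA was in 2 of the 42 (4.76%), those of Nr1i2 and Thrb, against 19.0% of all promoters. These counts take in every promoter of a gene. In the window at the start site of the counted transcript, Nr6a1, Rarg and Rxrg held no AGGTCA and Thrb no AGAACA, so those matches lay in other promoters of these genes. Members' promoters were richer in G and C, with a median of 59.8% against 52.7%, and held a median of 13 CpG dinucleotides against 7. A match describes letters in a window and does not show binding.

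The members spanned most of the range of expression in ileum. Levels compared between genes are given per length, as RPKM (TMM-scaled CPM divided by the counted length in kb), and are means of the 16 libraries with their SD. Hnf4a stood first at 320 ± 21.9 RPKM and by itself made up 37.9% of the summed RPKM of the 31 members. Vdr followed at 122 ± 10.5 and Ppard at 79.7 ± 9.03, and the ranges of these 3 over the 16 libraries did not overlap each other or those below. From Nr1h2 (51.2 ± 2.94) down to Nr2f6 (18.4 ± 1.90), every gene overlapped its neighbor in the order, which ran Nr1h2, Nr1i2, Hnf4g, Thra, Rxrb, Nr1h3, Nr3c1 and Nr2f6, and Nr2f6 overlapped Rara. Rara (15.7 ± 1.57) lay wholly above Pparg (8.47 ± 1.72). Below Pparg a run of overlapping neighbors led through Nr2c2, Nr3c2, Rarg, Nr2c1, Ppara, Nr2f2, Nr6a1, Thrb and Nr1i3 to Nr4a2 at 1.59 ± 0.305. Rarb, Rora, Nr4a3, Nr2f1 and Esr1 were between 0.799 ± 0.180 and 0.317 ± 0.0825.

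The last 3 members were barely measured. Rxrg had 1 to 44 counts per library (0.186 RPKM), Pgr 2 to 22 (0.0453 RPKM), and Esr2 a single count in 1 of 16 libraries. A count of 0 allows a level of up to 0.191 CPM in the shallowest library, so absence of Esr2 is not shown. These 3 did not pass the filter on low counts, and the other 28 members were tested in every comparison. Relative to all genes with any count, Hnf4a stood at the 99.1th percentile of RPKM, Vdr at the 97.3th, Thrb at the 45.8th and Esr1 at the 25.5th. The coefficient of variation over 16 libraries, which takes in sex and genotype as well, was 5.01% for Rxrb and 6.86% for Hnf4a. It was 26.0% for Esr1, which had 24 to 97 counts per library. The coefficient did not follow counts throughout. Nr3c2, with 296 to 933 counts, had 22.0%, and Nr1i3, with 31 to 165, had 18.0%.

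**Figure D1:**
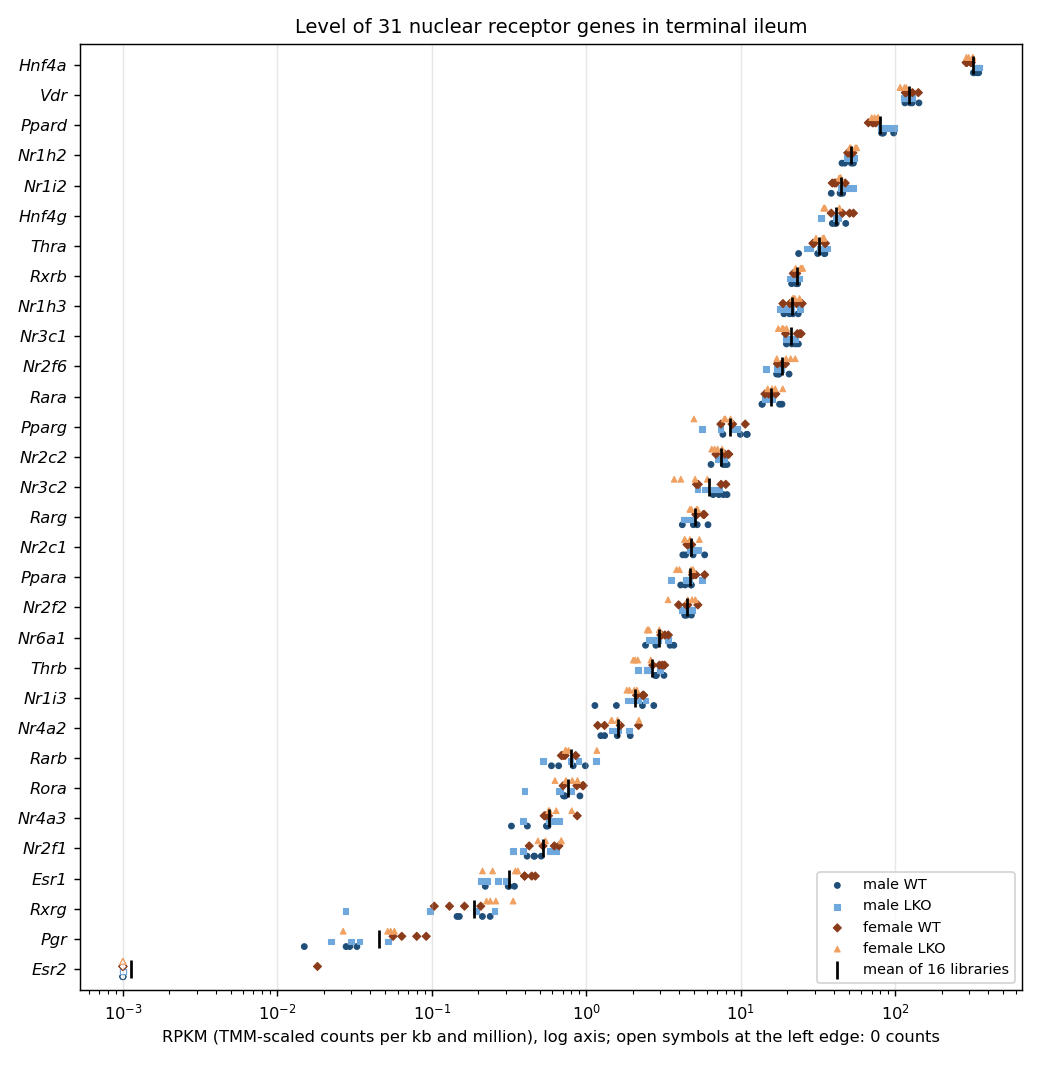
Level of each of the 31 receptor genes in RPKM on a log axis, with 1 symbol per library, shape and color for the group, and a black tick for the mean of 16 libraries. Hnf4a (320 RPKM), Vdr (122) and Ppard (79.7) stand clear of the rest, the 4 groups lie over one another for most genes, and Esr2 has a count in 1 library only.

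Hepatic Bcl6 genotype changed no receptor past the threshold. With edgeR's quasi-likelihood test, 0 of 28 tested members had an adjusted p below 0.05 in male LKO against male WT, where 0.0527% of all 15169 tested genes did. In females the count was 0 of 28 against 0.0392% of 15298 genes, and for the effect over both sexes, with sex as a covariate, 0 of 28 against 0.269% of 15598. The interaction, which asks whether the genotype effect differed between the sexes, called 0 members and 0% of all genes. With so few calls over all genes, a count of 0 among 28 members says little about the members.

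Below that threshold the unadjusted p-values were lopsided in females. In males 1 of 28 members (3.57%, Nr3c2) had an unadjusted p below 0.05, against a background of 5.29%. In females 9 of 28 did (32.1%), against 11.7% of all genes, and all 9 were lower in LKO, a direction that 6.75% of all genes shared at that p. Over both sexes it was 10 of 28 (35.7%) against 11.2%, with 9 lower in LKO against 6.57% of all genes. The 9 lower ones over both sexes were Thrb, Nr3c1, Nr3c2, Esr1, Hnf4g, Pparg, Nr6a1, Vdr and Rarg, and the 1 higher was Nr1i2. The median log2 fold change of the 28 members was -0.0026 over both sexes beside 0.00065 for all genes, with 14 lower and 14 higher. Members with no overlap between LKO and WT libraries numbered 0 of 28 in males, where 2.97% of genes had none, and 3 of 28 in females (Thrb, Nr6a1 and Esr1, all lower), where 6.31% had none. In the interaction 1 member, Nr3c1, had an unadjusted p below 0.05 against 5.64% of all genes, with an adjusted p of 0.845. The larger number of members in females than in males is therefore not shown to be a difference between the sexes. These counts depend on single libraries: in females they fell to 5 without female WT replicate 1 or without female LKO replicate 1, 2 or 3, and without the 2 female LKO libraries rich in B cell markers 4 members remained (Thrb, Nr3c1, Nr6a1 and Esr1). Over both sexes, leaving out the 3 libraries with B cell markers above 100 CPM left 3 (Thrb, Nr3c2 and Esr1), leaving out female WT replicate 1 left 5 and female LKO replicate 2 left 6, and taking the number that opens each sample title as a covariate left 6. In males every WT title opens with a lower number than every LKO title, so genotype and title order cannot be told apart there. The female numbers interleave. What the number stands for is not given.

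**Figure D2:**
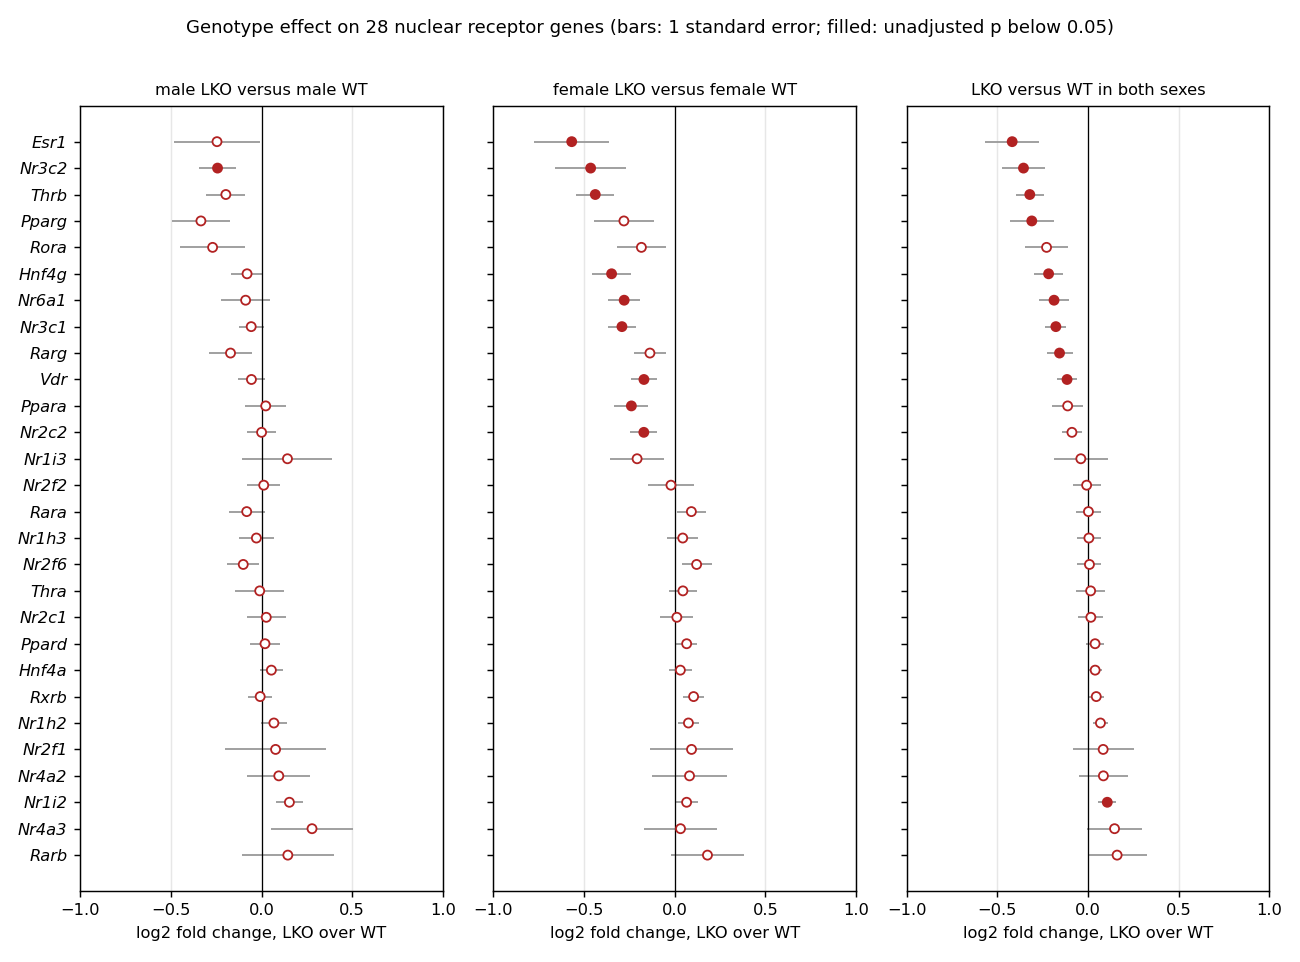
Log2 fold change of LKO over WT for the 28 tested receptor genes in males, in females and over both sexes, with bars of 1 standard error and filled points where the unadjusted p is below 0.05. In females 9 filled points lie left of 0 and none right of it, in males only Nr3c2 is filled, and no point has an adjusted p below 0.05.

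Thyroid hormone receptors bind T3 with RXR partners, and Thra and Thrb encode the alpha and beta forms. Thrb gave the lowest genotype p of any member. It was at 16.9, 19.0, 16.6 and 16.9 CPM in male WT libraries and at 17.9, 14.8, 12.9 and 14.7 CPM in male LKO. In females it was at 19.2, 16.1, 18.5 and 17.8 CPM in WT and at 12.4, 12.0, 12.9 and 15.6 CPM in LKO. All female LKO libraries were below all female WT libraries, while in males replicate 1 of LKO lay within the WT range. The log2 fold change was -0.44 (SE 0.10, adjusted p = 0.204) in females and -0.32 (SE 0.078, adjusted p = 0.0897) over both sexes, a level 19.9% lower, with 197 to 765 counts behind each library. Thrb is the member nearest to a call: the Wald test of DESeq2 gave adjusted p = 0.0264 in females and 0.0133 over both sexes, and edgeR without male LKO replicate 1 gave 0.0335 over both sexes, within a range of 0.0133 to 0.646 over all settings tried. Thra was far more abundant per length, at 31.9 RPKM against 2.66 for Thrb, and its log2 fold change over both sexes was 0.01 (SE 0.079). Its last exon overlaps an antisense gene, and the strand setting of the counting is not stated, so reads of the pair cannot be told apart here.

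The steroid receptors bind cortisol-type hormones, aldosterone, progesterone and estrogens. Nr3c1, the glucocorticoid receptor, was the abundant one at 21.0 RPKM. Female WT libraries held it at 152, 123, 155 and 147 CPM and female LKO libraries at 119, 117, 110 and 125 CPM. Male libraries lay at 135, 143, 124 and 149 CPM in WT and at 141, 127, 124 and 135 CPM in LKO. Thus 3 of 4 female WT libraries were above every female LKO library, and the male groups overlapped almost wholly. The log2 fold change was -0.29 (SE 0.077, adjusted p = 0.237) in females, -0.06 (SE 0.069, adjusted p = 0.999) in males and -0.18 (SE 0.057, adjusted p = 0.208) over both sexes, and the effect in males minus that in females was 0.23 (SE 0.11).

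Nr3c2, the mineralocorticoid receptor through which aldosterone acts on sodium uptake, had an unadjusted p below 0.05 in each sex and over both. Male WT libraries were at 26.9, 31.4, 29.3 and 33.1 CPM and male LKO libraries at 27.1, 29.4, 23.8 and 21.4 CPM. Female WT libraries split into 30.3 and 32.5 against 21.0 and 21.6 CPM, and female LKO libraries ran from 15.1 to 24.7 CPM. Its log2 fold change was -0.24 (SE 0.10, adjusted p = 0.893) in males, -0.46 (SE 0.20, adjusted p = 0.406) in females and -0.36 (SE 0.12, adjusted p = 0.227) over both sexes. Esr1, estrogen receptor alpha, was scarce. Its 4 female WT libraries were at 2.52 to 2.96 CPM and its 4 female LKO libraries at 1.35 to 2.28 CPM, without overlap. For Esr1 the log2 fold change was -0.57 (SE 0.21, adjusted p = 0.331) in females and -0.42 (SE 0.15, adjusted p = 0.260) over both sexes. Pgr and Esr2, the progesterone receptor and estrogen receptor beta, were too low to test.

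HNF4 receptors bind DNA as homodimers and drive genes of lipid transport and the brush border. Together Hnf4a and Hnf4g held 42.8% of the members' summed RPKM. Hnf4a varied little. Its male WT libraries were at 1481, 1398, 1513 and 1420 CPM and its male LKO libraries at 1448, 1525, 1534 and 1504 CPM, while female WT libraries were at 1255, 1270, 1356 and 1345 CPM and female LKO libraries at 1261, 1389, 1304 and 1383 CPM. Genotypes overlapped in both sexes, and the log2 fold change was 0.05 (SE 0.062, adjusted p = 0.999) in males, 0.03 (SE 0.064, adjusted p = 0.869) in females and 0.04 (SE 0.038, adjusted p = 0.755) over both. The paralog Hnf4g, at 41.4 RPKM, was less steady. Female WT libraries held 189, 160, 211 and 223 CPM and female LKO libraries 145, 146, 143 and 181 CPM, so that replicate 4 of LKO lay above the lowest WT library. In males, WT libraries ran from 163 to 199 CPM and LKO libraries from 138 to 176 CPM. The log2 fold change of Hnf4g was -0.35 (SE 0.11, adjusted p = 0.310) in females, -0.08 (SE 0.087, adjusted p = 0.999) in males and -0.22 (SE 0.080, adjusted p = 0.285) over both.

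The vitamin D receptor Vdr controls calcium uptake, Nr1i2 (PXR) and Nr1i3 (CAR) sense foreign chemicals, and the 3 together made up 19.9% of the summed RPKM. Vdr was at 503 to 611 CPM in female WT and at 465 to 509 CPM in female LKO. Male libraries ranged from 500 to 616 CPM in WT and from 494 to 560 in LKO. The log2 fold change of Vdr was -0.17 (SE 0.074, adjusted p = 0.399) in females, -0.06 (SE 0.075, adjusted p = 0.999) in males and -0.12 (SE 0.053, adjusted p = 0.412) over both sexes. Nr1i2 was the only member with an unadjusted p below 0.05 and a higher level in LKO, at 96.6 to 115 CPM in male WT and 111 to 133 CPM in male LKO, with 98.2 to 119 CPM in female WT and 109 to 111 CPM in female LKO. Its log2 fold change was 0.15 (SE 0.075, adjusted p = 0.965) in males, 0.07 (SE 0.064, adjusted p = 0.702) in females and 0.11 (SE 0.050, adjusted p = 0.431) over both sexes. Nr1i3, a receptor best known in liver, had only 31 to 165 counts per library. For Nr1i3 the log2 fold change was 0.14 (SE 0.25, adjusted p = 0.999) in males, -0.21 (SE 0.15, adjusted p = 0.589) in females and -0.04 (SE 0.15, adjusted p = 0.953) over both.

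The fatty acid receptors (PPARs) were ordered Ppard, Pparg and Ppara, at 79.7, 8.47 and 4.65 RPKM. Ppara, which drives fatty acid oxidation, was at 30.3 to 35.5 CPM in male WT and 26.2 to 41.6 CPM in male LKO, and at 36.2 to 43.3 CPM in female WT and 28.5 to 36.4 CPM in female LKO. Its log2 fold change was 0.02 (SE 0.11, adjusted p = 0.999) in males, -0.24 (SE 0.093, adjusted p = 0.361) in females and -0.11 (SE 0.084, adjusted p = 0.669) over both sexes. Pparg is the form best known from adipocytes. It was at 23.0, 21.0, 23.3 and 16.2 CPM in male WT and 11.9, 20.0, 15.6 and 18.5 CPM in male LKO, with female WT at 15.7 to 22.6 CPM and female LKO at 10.5 to 18.1 CPM. Its log2 fold change over both sexes was -0.31 (SE 0.12, adjusted p = 0.325). Summed adipocyte markers ran from 95.4 to 435 CPM over the 16 libraries and from 189 to 435 CPM in female LKO, the group with the lowest mean Pparg. Ppard, the widely expressed form, had a genotype log2 fold change of 0.04 over both sexes, and its libraries are given with the sex comparison.

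The LXR genes, whose products sense oxysterols and control cholesterol export, were Nr1h2 (LXR beta) at 51.2 RPKM and Nr1h3 (LXR alpha) at 21.5 RPKM. For Nr1h3 the log2 fold change was -0.03 (SE 0.097, adjusted p = 0.999) in males, 0.04 (SE 0.085, adjusted p = 0.861) in females and 0.0048 (SE 0.067, adjusted p = 0.986) over both, and its groups overlapped throughout at 32.0 to 44.5 CPM. Among the 5 retinoid receptors listed, which bind vitamin A derivatives, Rxrb (22.9 RPKM) and Rara (15.7 RPKM) led, with Rarg at 5.01 and Rarb at 0.799. Rxra was not in the list and its level was not read. Rarg was the 1 listed retinoid receptor with a low genotype p: male WT libraries ran from 11.3 to 16.6 CPM and male LKO from 11.5 to 13.2 CPM, female WT from 13.8 to 15.7 CPM and female LKO from 12.7 to 14.2 CPM, giving a log2 fold change of -0.16 (SE 0.072, adjusted p = 0.414) over both sexes. The COUP factors Nr2f1, Nr2f2 and Nr2f6, orphan repressors, had no unadjusted p below 0.05 for genotype.

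Of the other orphan receptors, Nr6a1 (GCNF), best known from germ cells and early embryos, separated the female groups: 19.9, 20.9, 18.7 and 18.9 CPM in WT against 15.5, 15.3, 18.3 and 15.7 CPM in LKO. Males showed no such separation, with WT libraries from 14.9 to 22.7 CPM and LKO libraries from 15.7 to 20.7 CPM. The log2 fold change was -0.28 (SE 0.087, adjusted p = 0.298) in females and -0.19 (SE 0.084, adjusted p = 0.397) over both sexes. Nr2c2 (TR4) was at 53.1 to 64.2 CPM in female WT and 49.8 to 58.2 CPM in female LKO, with a log2 fold change of -0.17 (SE 0.075, adjusted p = 0.403) in females. Its relative Nr2c1 (TR2), the immediate-early genes Nr4a2 and Nr4a3 and Rora, a receptor that acts in the clock and in lymphoid cells, had no unadjusted p below 0.05 for genotype.

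**Figure D3:**
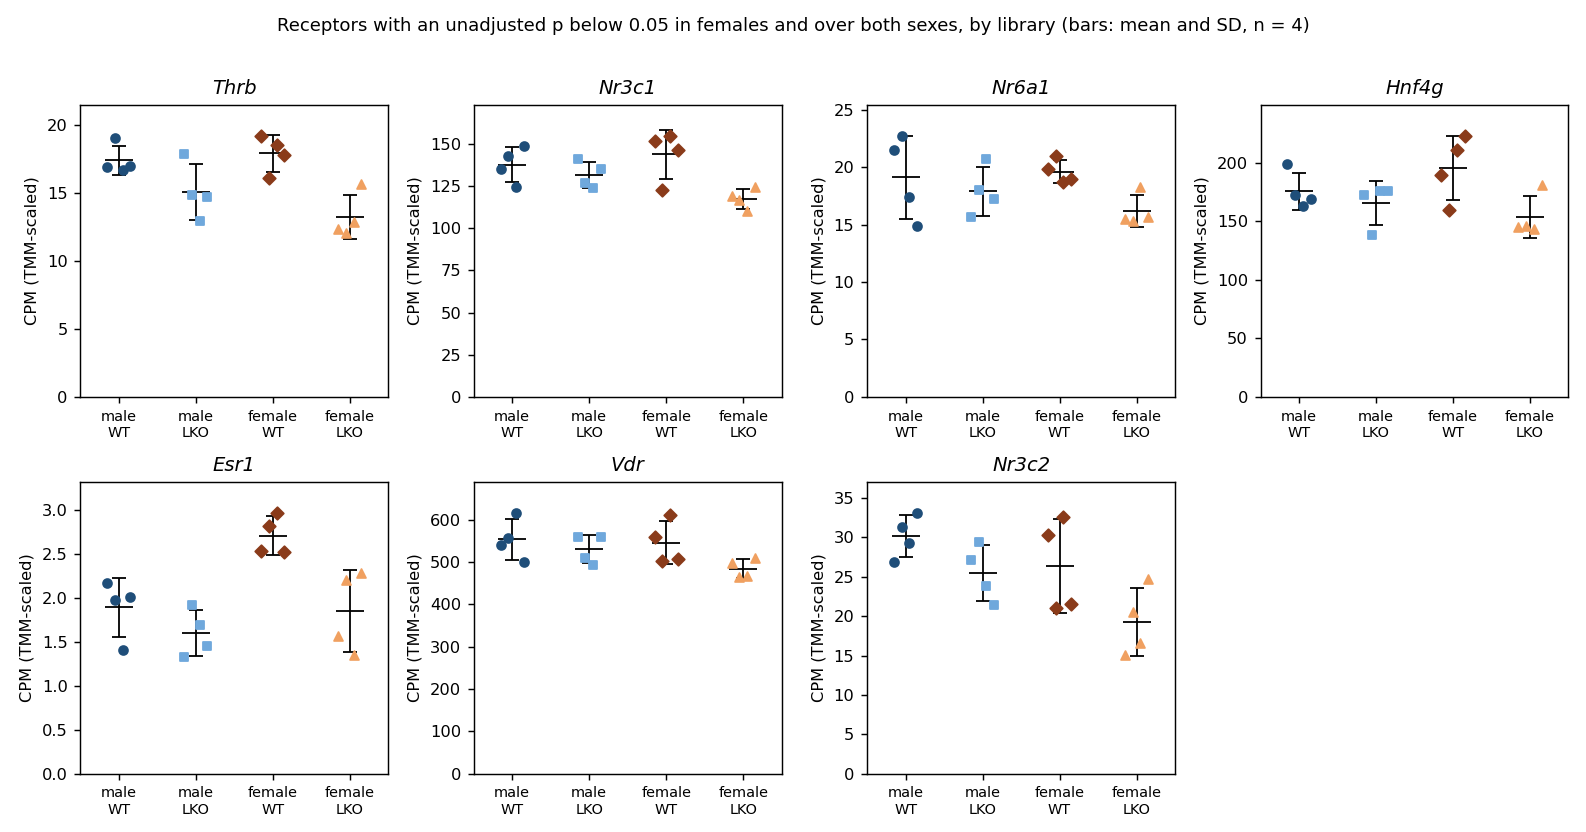
TMM-scaled CPM in each library of the 7 receptor genes with an unadjusted p below 0.05 both in females and over both sexes, from an axis starting at 0, with black bars for mean and SD (n = 4 per group). Female LKO libraries lie wholly below female WT for Thrb, Nr6a1 and Esr1 and overlap them for Nr3c1, Hnf4g, Vdr and Nr3c2.

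Between the sexes 2 receptors differed. Ppard and Hnf4a were higher in males, and with genotype as a covariate they were the members past the threshold: 2 of 28 (7.14%) against 11.0% of all genes, or against 5.61% of all genes for calls higher in males. Ppard libraries were at 268, 265, 312 and 261 CPM in male WT and 259, 259, 315 and 283 CPM in male LKO. In females they were at 214, 231, 228 and 239 CPM in WT and 246, 248, 225 and 235 CPM in LKO. Every male library was above every female library, and the log2 difference, male minus female, was 0.25 (SE 0.050, adjusted p = 0.00601), a level 19.0% higher. For Hnf4a, whose libraries are given above, the lowest male library (1398 CPM) was also above the highest female one (1389 CPM), and the difference was 0.16 (SE 0.038, adjusted p = 0.0126), or 11.9%. Such separation of all 8 male from all 8 female libraries was met in 2 of 28 members and in 0.917% of all genes.

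Other members with an unadjusted p below 0.05 between the sexes brought the count to 5 of 28 (17.9%), below the 29.3% of all genes. Nr3c2 was higher in males (log2 difference 0.30, SE 0.12, adjusted p = 0.0955), and without female WT replicate 3 its adjusted p was 0.0391. Esr1 was lower in males (-0.36, SE 0.15, adjusted p = 0.111), with male libraries from 1.32 to 2.17 CPM. Nr4a3, an immediate-early gene, was lower in males too (-0.32, SE 0.15, adjusted p = 0.171). Sex also moved markers of cell types: 9 of 10 smooth muscle markers and 5 of 8 Paneth cell markers were lower in males with an adjusted p below 0.05, and summed smooth muscle markers ran from 3641 to 4750 CPM in males and 4801 to 6963 CPM in females. Over the 16 libraries Ppard was negatively related to that sum (Pearson r = -0.67, permutation p = 0.00479, Spearman rho = -0.75, permutation p = 0.00099, r = -0.77 without the 2 farthest libraries, adjusted p = 0.203 over the 112 relations computed), but within a sex r was -0.51 in males and 0.13 in females, so the relation was not seen in females. Hnf4a gave a like relation to the same sum (Pearson r = -0.66, permutation p = 0.00553, Spearman rho = -0.73, permutation p = 0.00198, r = -0.69 without the 2 farthest libraries, adjusted p = 0.203), with r = -0.30 in males and 0.04 in females. The part of smooth muscle in the sex differences of both receptors was not tested. None of the 112 relations of a receptor to the summed smooth muscle, B cell, enterocyte or adipocyte markers had an adjusted p below 0.05, and 11 had an unadjusted p below it. The lowest was that of Rara with B cell markers (Pearson r = 0.69, permutation p = 0.00296, r = 0.75 in males and 0.74 in females). Nr4a3 was positively related to the smooth muscle sum (Pearson r = 0.63, permutation p = 0.00906, r = 0.32 in males and 0.62 in females). To the enterocyte sum Nr4a3 was negatively related, at a lower p (Pearson r = -0.63, permutation p = 0.00731, r = -0.63 in males and -0.47 in females).

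**Figure D4:**
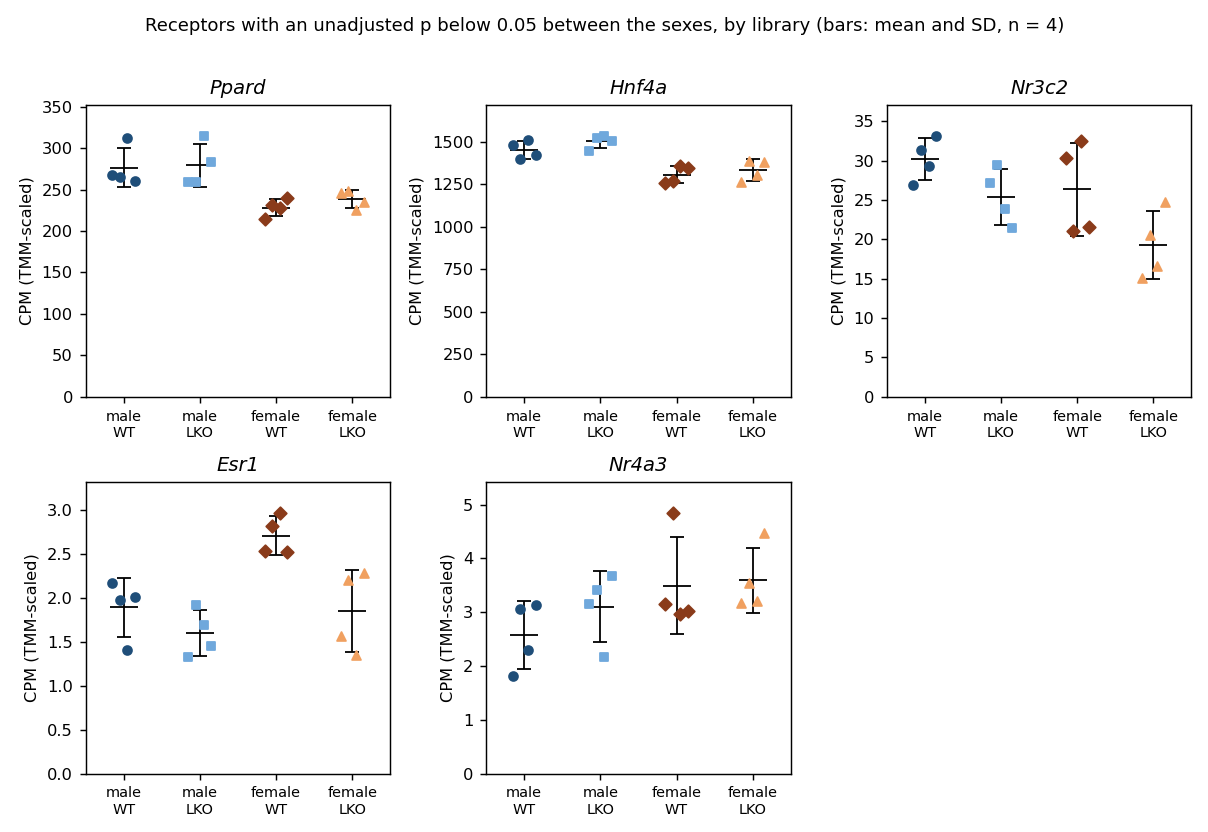
TMM-scaled CPM in each library of the 5 receptor genes with an unadjusted p below 0.05 between the sexes, from an axis starting at 0, with black bars for mean and SD (n = 4 per group). Male Ppard (259 to 315 CPM) and male Hnf4a (1398 to 1534 CPM) lie above every female library, and the other 3 genes overlap.

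Genes around the receptors were read from lists of their targets, coregulators and ligand enzymes. At an unadjusted p below 0.05 the background over both sexes was 11.2% of all genes, 4.67% higher and 6.57% lower in LKO, and counts of list genes at that p are to be read against it. For calls over both sexes the background was 0.269% of all genes. Over both sexes, 2 of 13 tested PPAR targets were called and 5 had an unadjusted p below 0.05, all higher in LKO, with a list median log2 fold change of 0.35 beside 0.00065 over all genes. That median ran from 0.22 to 0.37 with 1 library left out. In males alone the list median was 0.14 and in females alone 0.29. Acadl, a fatty acid beta-oxidation dehydrogenase, rose in LKO. It was at 133 ± 16.8 CPM in male WT, 189 ± 19.1 in male LKO, 126 ± 5.13 in female WT and 163 ± 3.19 in female LKO (SD, n = 4), without overlap in either sex. Its log2 fold change was 0.44 (SE 0.058, adjusted p = 0.00083), a call made in 27 of 29 fits and lost in the fits that used title numbers. In females alone it also passed (0.37, SE 0.055, adjusted p = 0.0431), but not once any 1 of the 8 female libraries was left out (adjusted p 0.0828 to 0.147). Slc25a20, the carnitine-acylcarnitine carrier of mitochondria, rose by 0.35 (SE 0.072, adjusted p = 0.0470), a call made in 11 of 29 fits, the reported one included, and lost without any 1 of 13 of the libraries. Cpt1a, which makes acylcarnitines, had a log2 fold change of 0.36 (SE 0.086, adjusted p = 0.0911). Ppara, Ppard and Pparg, the receptors of these targets, had no genotype call.

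Among 10 LXR targets 1 was called: Scd2, a stearoyl-CoA desaturase, fell by 0.95 on the log2 scale (SE 0.15, adjusted p = 0.0275). It was at 799 ± 188 CPM in male WT, 493 ± 102 in male LKO, 672 ± 175 in female WT and 292 ± 10.4 in female LKO, and the call was made in 19 of 29 fits and lost without male WT replicate 1, male LKO replicate 2 or 4, or any 1 female LKO library. The LXR list as a whole had a median of -0.01, and Abcg1, a sterol exporter, had a log2 fold change of 0.33 (SE 0.11, adjusted p = 0.229), and Srebf1, which drives fatty acid synthesis, -0.17 (SE 0.063, adjusted p = 0.284). Retinoic acid targets and ligand enzymes shared Aldh1a1, a retinaldehyde dehydrogenase, which fell in females (log2 fold change -0.53, SE 0.078, adjusted p = 0.0431) from 223 ± 26.6 to 155 ± 3.67 CPM. That call was lost without any 1 of the 8 female libraries except WT replicate 2 (adjusted p 0.0815 to 0.166). Over both sexes its log2 fold change was -0.39 (SE 0.093, adjusted p = 0.0958), and Tgm2, a transglutaminase that retinoic acid induces, had 0.28 (SE 0.062, adjusted p = 0.0566) and Isx, an intestinal homeobox gene, -0.20 (SE 0.060, adjusted p = 0.174).

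The other lists had no call for genotype over both sexes with edgeR as reported. Under other settings only the list genes named in this report were read, and the remaining list genes were not. Among those named, DESeq2 called 8 further over both sexes: Scnn1a (adjusted p = 0.00492), Tgm2 (0.00512), Aldh1a1 (0.00757), Cpt1a (0.00880), Cyp3a25 (0.0116), Greb1 (0.0233), Ch25h (0.0307) and Nfkbia (0.0352). Without the filter on low counts edgeR also called Scnn1a (0.0479) and Tgm2 (0.0495), with the title number as a covariate Nfkbia (0.0322), and without male WT replicate 4 Cpt1a (0.0493), Scnn1a (0.0376), Tgm2 (0.0137) and Aldh1a1 (0.00846). The same title number covariate ended the calls of Acadl (adjusted p = 0.0660), Slc25a20 (0.182) and Scd2 (0.214). Sets of neighboring title numbers as a factor ended them too (0.170, 0.0957 and 0.0957). Leaving out male LKO replicate 2 brought a call of Scnn1a (0.0359), and leaving out male LKO replicate 4 calls of Nfkbia (0.0118) and Tgm2 (0.0471). Glucocorticoid and mineralocorticoid receptor targets, 11 tested, had 4 with an unadjusted p below 0.05: Scnn1a, the sodium channel subunit, had a log2 fold change of -0.28 (SE 0.061, adjusted p = 0.0502), Nfkbia 0.26 (SE 0.068, adjusted p = 0.114) and Fkbp5 0.34 (SE 0.11, adjusted p = 0.216). Thyroid hormone receptor targets, 7 tested, had 3: Hr 0.18 (SE 0.055, adjusted p = 0.170), Dio1 -0.42 (SE 0.16, adjusted p = 0.320) and Sult1c2 -0.37 (SE 0.15, adjusted p = 0.342), so they pointed both ways. PXR and CAR targets, 10 tested, had 3, all lower: Cyp3a25 -0.92 (SE 0.23, adjusted p = 0.121), Ces2a -0.34 (SE 0.15, adjusted p = 0.400) and Abcb1a -0.29 (SE 0.13, adjusted p = 0.438), with 9 of the 10 lower and a median of -0.19. Estrogen and progesterone receptor targets had 4 of 5, all lower, with Greb1 at -0.33 (SE 0.083, adjusted p = 0.104), Wnt4 at -0.37 (SE 0.13, adjusted p = 0.284) and Igf1 at -0.27 (SE 0.11, adjusted p = 0.320).

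In the 4 lists left, edgeR as reported called no gene either. Of 13 HNF4 targets none had an unadjusted p below 0.05 and 11 were higher in LKO, with Sis, the sucrase-isomaltase gene, at -0.27 (SE 0.15, adjusted p = 0.556), Apoa1 at 0.17 (SE 0.14, adjusted p = 0.704) and Apoa4 at 0.45 (SE 0.37, adjusted p = 0.711). VDR targets, 6 tested, had 1, the calcium pump gene Atp2b1 at -0.28 (SE 0.094, adjusted p = 0.236), with Cdkn1a at 0.11 (SE 0.055, adjusted p = 0.492) and Cyp3a11 at -0.66 (SE 0.43, adjusted p = 0.620). Of 15 coactivators and corepressors, 6 had an unadjusted p below 0.05, all lower, among them Tbl1x at -0.27 (SE 0.087, adjusted p = 0.207), Ncoa2 at -0.15 (SE 0.053, adjusted p = 0.252) and Ncor1 at -0.14 (SE 0.048, adjusted p = 0.263). Of 14 ligand enzymes 4 did, with Ch25h, which makes an oxysterol, at 0.81 (SE 0.21, adjusted p = 0.104) from a mean of 1.14 CPM and Bco1, which cleaves beta-carotene, at -0.36 (SE 0.12, adjusted p = 0.208).

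**Figure D5:**
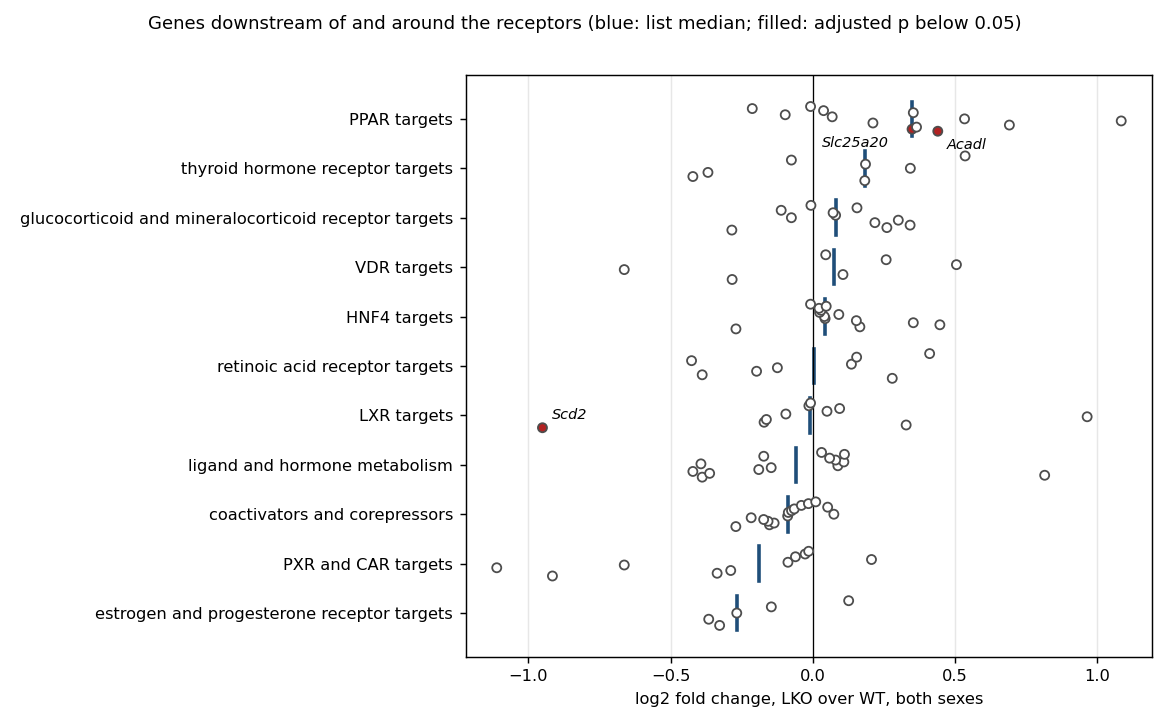
Log2 fold change of LKO over WT, both sexes together, of each tested gene in 11 lists of receptor targets, coregulators and ligand enzymes, with 1 point per gene, a blue line for the list median and filled points where the adjusted p is below 0.05. Filled are Acadl and Slc25a20 among PPAR targets (median 0.35) and Scd2 among LXR targets (median -0.01).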

How the data were processed

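Polyadenylated RNA of terminal ileum from 16 mice was sequenced by the authors (stranded mRNA libraries, 100 bp single-end reads). Per the study's methods and processing notes, reads were aligned to mm10 with STAR 2.5.2 and exonic reads of 1 RefSeq transcript per gene were counted with HOMER 4.10, so the deposited values are raw counts. The strand setting and annotation version are not given in the sources used here. Genes that share reads with close copies lose counts, because reads with several positions were dropped.

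Groups came from the sample titles. The main test was edgeR 4.0.16 (R 4.3.3), using robust quasi-likelihood fits, TMM scaling and the filterByExpr filter with group as factor. Benjamini-Hochberg adjustment ran over all genes tested, and "called" means an adjusted p below 0.05. Males and females were fitted on 8 libraries each, and the other comparisons on all 16. The SE is the size of the log2 fold change over the square root of F. Marker relations used 100000 permutations (two-sided, log2 CPM with a prior count of 2). Scripts were tested on simulated data. Alternatives were DESeq2 1.42.0, other scalings and filters, fits with title numbers or replicate numbers, and libraries left out.

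The members and all gene lists were chosen with earlier results of these data known, so counts over them are descriptions. Every member is named. Statistics are given for members past the threshold in any comparison or with an unadjusted p below 0.05 in one, always for Vdr, Nr1i2, Nr1i3, Hnf4a, Hnf4g, Ppara, Nr1h3 and Nr3c1, and for up to 3 genes per target or partner list (lowest p over both sexes, mean of at least 1 CPM). Promoters are from RefSeq on GRCm38.p6, the assembly of mm10.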

Additional observations from a re-analysis of the deposited data

Results flagged for a closer look

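In 112 groups of 4 libraries (28 tested receptors in 4 groups), 10 had 1 library far from the other 3, judged by the gap to its neighbor relative to the range of the group, a test that chance passes in about 1 in 20 groups. In female LKO, Thra was at 75.4 CPM in replicate 1 against 83.5 to 85.0 in the others, Rarb at 3.54 in replicate 3 against 2.21 to 2.32, Hnf4g at 180.8 in replicate 4 against 143 to 146, and Nr6a1 at 18.3 in replicate 3 against 15.3 to 15.7. In female WT, Nr1i3 was at 2.96 CPM in replicate 3 against 3.25 to 3.29, and Nr4a3 at 4.85 in replicate 2 against 2.96 to 3.16. In male WT, Thrb was at 19.0 CPM in replicate 2 against 16.6 to 16.9, Ppard at 312 in replicate 3 against 261 to 268, and Rora at 9.86 in replicate 4 against 7.72 to 7.91. In male LKO, Hnf4g was at 138 CPM in replicate 2 against 172 to 176. No receptor had a genotype effect that differed between the sexes at an adjusted p below 0.05.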

How the results depend on the processing

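Ppard differed between the sexes in all 28 fits tried, the reported one included, with a log2 difference of 0.22 to 0.27, and Hnf4a under all but the title number as a covariate (adjusted p = 0.106, range over settings 0.000111 to 0.106), which left 1 receptor called. The genotype effect in males and the interaction called 0 receptors under all settings tried, and the effects in females and over both sexes called 1 each with DESeq2 (Thrb in both). Without male LKO replicate 1 the both-sexes effect also called Thrb (0 to 1 over the libraries left out). Leaving out 1 library gave 2 to 3 receptors called between the sexes. Counts at an unadjusted p below 0.05 moved more. In males it was 2 with DESeq2 and with no filter, and 0 to 3 with 1 library left out, 0 without male WT replicate 2 or male LKO replicate 3. In females the count was 4 without the libraries whose summed B cell markers exceed 100 CPM, an alternative chosen after seeing the data, and 5 to 11 with 1 library left out, 5 or 6 without female WT replicate 1 or 3 or female LKO replicate 1, 2 or 3. Over both sexes it was 6 with the title number as a covariate, 6 with sets of neighboring title numbers as a factor, 3 without the B cell-rich libraries and 5 to 10 with 1 library left out, 5 without female WT replicate 1 and 6 without female LKO replicate 2. For the interaction it was 0 with upper-quartile scaling, 0 without the B cell-rich libraries and 0 to 4 with 1 library left out. Between the sexes it was 8 with upper-quartile scaling, 3 with the title number and 4 to 8 with 1 library left out, 8 without female WT replicate 4. The cause of these moves was not tested.

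Signs turned only for log2 fold changes near 0 or with a wide error. With the title number, Nr1h3 was 0.11 in males, where that number separates WT from LKO fully, -0.011 in females and -0.0033 over both sexes, and Hnf4a -0.0073 in females and -0.0010 over both. Over both sexes Nr1i3 was 0.0049 with sets of title numbers and 0.089 without the B cell-rich libraries, where Nr1h3 was -0.012 and Apoa4 -0.033. With 1 library left out, males gave -0.092 to 0.12 for Ppara, -0.10 to 0.00032 for Vdr, -0.11 to 0.034 for Nr1h3 and -0.051 to 0.34 for Nr1i3, females gave -0.023 to 0.11 for Nr1h3, and both sexes gave -0.14 to 0.032 for Nr1i3 and -0.030 to 0.039 for Nr1h3.

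Replicate numbers did not pair the samples (correlations of same-numbered libraries' deviations from -0.10 to 0.26). With the replicate block the calls numbered 0, 0, 0, 0 and 2 for males, females, both sexes, interaction and sex, and 7 receptors had an unadjusted p below 0.05 in females. Among list genes the block ended the calls of Acadl in females (adjusted p = 0.0560) and Slc25a20 over both sexes (0.0700). The title number as a covariate ended the calls of Acadl (0.0606) and Aldh1a1 (0.0583) in females. Over both sexes it ended those of Acadl, Slc25a20 and Scd2.

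Slc25a20 lost its call without any library other than male WT replicate 3, male LKO replicate 3 and female WT replicate 3 (adjusted p 0.0543 to 0.0979), and Scd2 lost it without 7 single libraries (adjusted p 0.0506 to 0.0689). Depth limits the scarce receptors: Rxrg, Pgr and Esr2 gave no test.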
